A study of Mus musculus with 5 samples.

Results

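The transcripts described here are 10 products of goblet cells, measured in colon spheroids of mice whose Notch1 and Notch2 receptors cannot dimerize. They are Retnlb, Muc2, Tff3, Fcgbp, Clca1, Zg16, Agr2, Best2, Spink4 and Ang4, chosen by name with earlier results of these data known. All 10 were found among the 32793 gene rows of the deposited tables. Spheroids are epithelial cultures that grow as hollow balls in a gel. The 2 mutant cultures (NDD) express the dimerization-deficient alleles Notch1DD and Notch2DD, and the 3 control cultures are wild type (WT). The labels give the same mixed strain background for all 5 cultures, mostly C57Bl6 with some FVB. The share of each strain per culture is not given, so a difference in strain background and the Notch genotype cannot be told apart in the comparisons that follow, Retnlb included. The age of the mice, the number of mice behind the cultures and whether each allele was carried on both chromosomes are not given in the sources used here. Nothing says that the cultures of a genotype came from separate mice, so p-values measure the spread between these cultures, which may be technical.

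Goblet cells are the secretory cells that cover the colon with mucus. The gel-forming mucin MUC2 is folded in the endoplasmic reticulum, glycosylated, packed into granules and released together with smaller proteins that shape, cross-link or protect the mucus layer. Notch signalling between neighbouring cells holds progenitors out of the secretory fate: a cell that escapes it switches on the transcription factor Atoh1 and can become a goblet cell, whereas active Notch, through Hes1, favours the absorptive fate. Retnlb encodes RELM-beta, a small cysteine-rich protein that colonic goblet cells secrete towards the lumen, where it acts on bacteria. It is known to be induced by microbes and by the type 2 cytokines IL-4 and IL-13.

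Total estimated counts per library were 22372029 and 22122748 in NDD and 19192389 to 23064000 in WT, and 13501 genes had enough counts to be tested. Across the tested genes, the Spearman correlation of log2 CPM (counts per 1000000 counts, scaled by TMM factors) was 0.966 between the 2 NDD libraries and 0.984 to 0.987 between WT libraries. NDD replicate 1 was closer to each WT library, at 0.973 to 0.985, than to NDD replicate 2. NDD replicate 2 stood apart, at 0.939 to 0.966 with every other library, and without it Retnlb was still called and the log2 fold change of Best2 was 2.41. Notch1 and Notch2 transcripts were not called as changed (edgeR adjusted p = 0.584 and 0.505), and gene counts cannot check which allele a library carries. All 10 genes of an epithelial list, among them Epcam and Cdh1, had counts, with summed levels of 10772 and 12190 CPM in NDD and 10693 to 11880 CPM in WT. Markers of other tissues were scarce. The immune list summed to 2.46 and 4.11 CPM in NDD and to 4.85 to 8.71 CPM in WT, with Nkg7 at 0 counts throughout. The endothelial list summed to at most 7.28 CPM in any library, and the fibroblast list to at most 44.4 CPM, with Lum and Thy1 at 0.

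Retnlb was the member with the clearest difference. It was nearly silent in WT, with 1, 2 and 0 counts, and was read 333 and 216 times in NDD. In TPM (transcripts per 1000000, a level per transcript length) it stood at 48.7 and 31.3 in NDD, beside 0.17, 0.28 and 0 in WT. Both NDD libraries were therefore far above every WT library, and the groups did not overlap. A count of 0 allows up to 3 counts, or 0.130 CPM in WT replicate 3. That limit covers counting error only. Taken against a floor of 3 counts per WT library, the mean of the NDD libraries, 12.3 ± 3.14 CPM (SD, n = 2), was at least 89.0-fold higher. This bound is on the means and leaves out the spread of the NDD libraries. The fitted log2 fold change was 7.90 (SE 0.59, edgeR quasi-likelihood test, adjusted p = 0.0197 over all genes). That value depends on the small count added to the zeros and is no bound. Permuting the libraries exactly (two-sided, log2 CPM) gave p = 0.2, the smallest p that this two-sided test, which doubles the one-sided p, can give with 2 libraries against 3.

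The call of Retnlb used all 3 WT libraries. Without WT replicate 1, 2 or 3 its edgeR adjusted p was 0.157, 0.109 and 0.0563, while the fitted log2 fold change stayed between 7.33 and 8.73. With either NDD library left out, which leaves a lone NDD library that is assumed to vary like the others, the edgeR adjusted p was 0.0154 and 0.0135.

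Retnlb lies on the plus strand of chromosome 16 at chr16:48816856-48818892 (mm10, which is GRCm38), has 4 exons and is annotated with 1 transcript of 696 bases in GENCODE M21. A relative, Retnla, encodes RELM-alpha and lies on the same strand at chr16:48842551-48844461. The ends of both coding sequences, in single exons, are printed to show how far a sequencing read could confuse them. They run to the stop codon, 5′ to 3′, and capitals mark bases that are identical in both genes.
Retnlb, chr16:48818696-48818755: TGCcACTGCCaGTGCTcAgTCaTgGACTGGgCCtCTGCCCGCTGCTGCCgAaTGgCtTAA
Retnla, chr16:48844242-48844301: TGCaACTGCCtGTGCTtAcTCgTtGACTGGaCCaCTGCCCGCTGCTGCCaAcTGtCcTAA
Of these 60 bases, 48 were identical, and the stretch holds the longest identical run of the aligned coding sequences, 15 bases. None of the 666 31-base sequences of Retnlb occurs in a transcript of another gene of that annotation. Retnla, Retn and Retnlg, the other members of the resistin-like family, had 0 counts in all 5 libraries. Within its family, only Retnlb was read.

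The other 9 members were all well covered in both genotypes except Best2. In WT, mean levels ran from Tff3 (798 ± 123 TPM, SD, n = 3) through Agr2 (436 ± 48.1), Spink4 (239 ± 23.5), Zg16 (187 ± 59.4), Clca1 (130.5 ± 42.4), Fcgbp (89.7 ± 16.6), Ang4 (74.9 ± 10.6) and Muc2 (68.6 ± 68.8) to Best2 (0.91 ± 0.292) and Retnlb (0.15 ± 0.141). Tff3 and Agr2 each held a range of their own in the WT libraries. From Spink4 to Muc2 each neighbour in this order overlapped the next, and Best2 and Retnlb again lay apart. The NDD means gave a similar order. Zg16 and Spink4 overlapped there and changed places between the 2 libraries, as did Muc2 and Ang4. Retnlb, last in WT, came before Best2 there, at 40.0 ± 12.3 TPM (SD, n = 2).

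**Figure D1:**
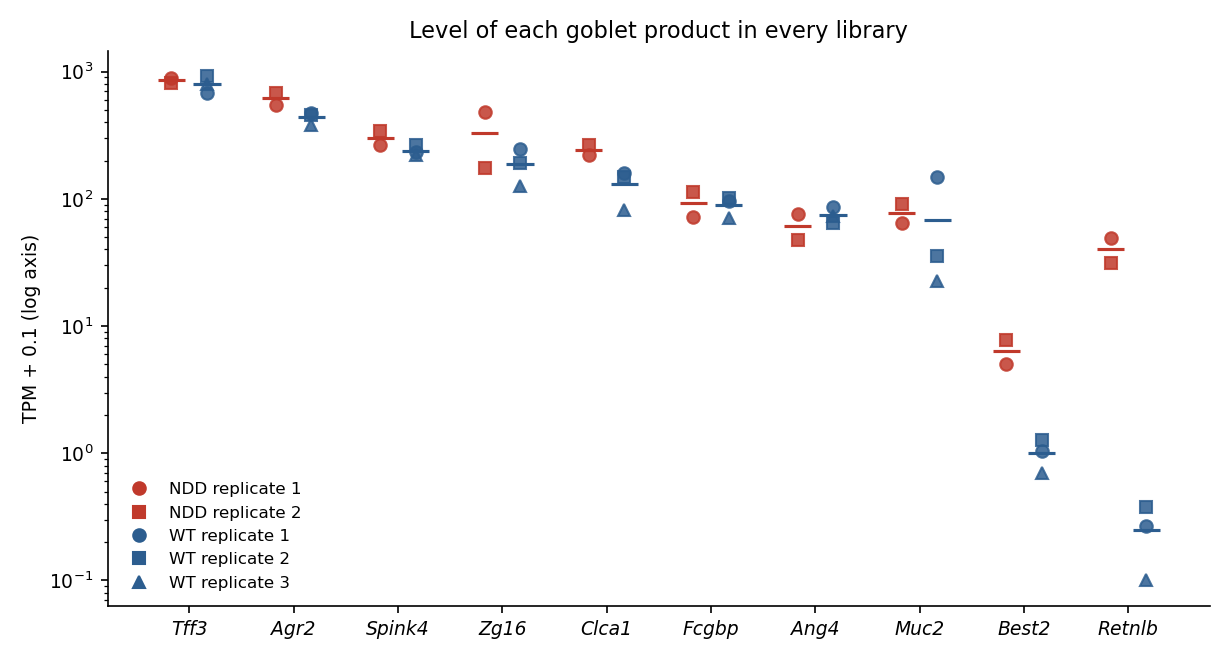
Level of the 10 goblet products in each library, in TPM plus 0.1 on a log axis, ordered by the WT mean. Points are libraries and short lines are group means. Retnlb is at 31.3 and 48.7 TPM in NDD and at most 0.28 TPM in WT, and Best2 is also separated between genotypes, whereas Tff3, Fcgbp, Ang4 and Muc2 are not.

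Of the 10 members, 1 (Retnlb) passed an edgeR adjusted p under 0.05 and was higher in NDD. Of all tested genes 0.0889% passed, and 0.0667% passed with a higher value in NDD. With the replicate number as a block the count was again 1 member, beside 0.244% of all genes, and DESeq2 called 2 members, Retnlb and Best2, beside 2.54%. Higher in NDD without overlap between the groups were 4 members, Retnlb, Best2, Clca1 and Agr2. The same was true of 15.8% of all tested genes, and 32% had no overlap in one direction or the other, so non-overlap alone was common in these libraries. An unadjusted p under 0.05 was found for these 4 members, all higher in NDD, beside 6.49% of all genes higher in NDD and 11.2% in either direction. The log2 fold change was positive in 9 of the 10 members, against 49.5% of all genes. The median over the 10 was 0.47, with Retnlb at its fitted value or at its bound, beside -0.0047 over all tested genes. Because the members were chosen with earlier results of these data known, these shares and medians describe them and are no test of the set.

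**Figure D2:**
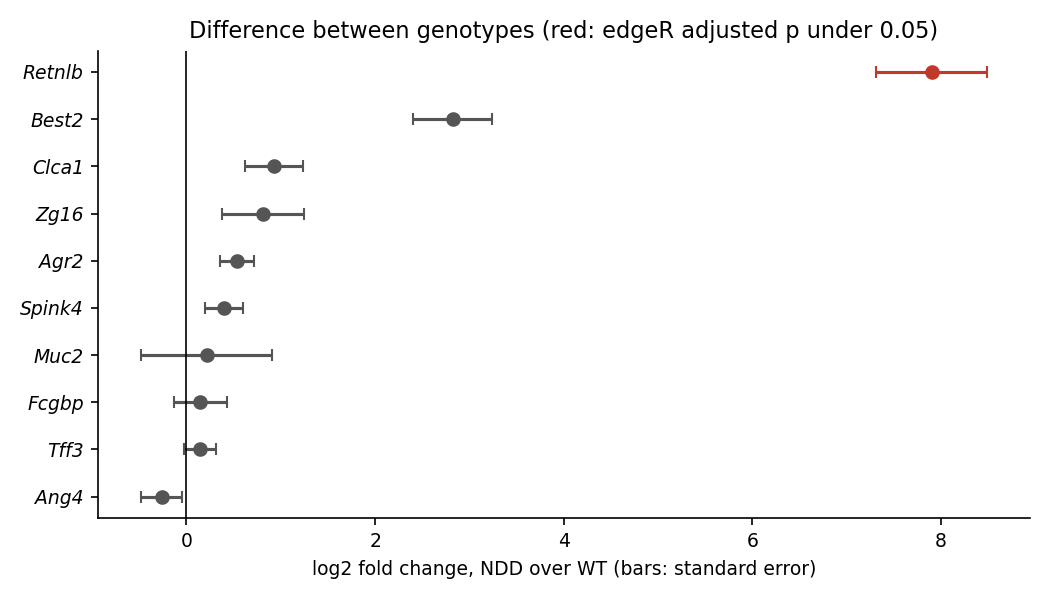
Fitted log2 fold change of each member, NDD over WT, with its standard error (edgeR, n = 2 against 3). Retnlb at 7.90 (red) is the only member with an adjusted p under 0.05. Best2 follows at 2.82, and the remaining 8 lie between -0.26 and 0.93.

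The mucus skeleton was described first by Muc2, the gel-forming mucin of the colon. Its levels were 64.1 and 90.5 TPM in NDD and 148, 35.7 and 22.5 TPM in WT. WT replicate 1 was the highest library of all and WT replicate 3 the lowest, so the NDD values fell inside the WT range. The highest WT library held 5.83 times the CPM of the lowest. Its fitted difference was a log2 fold change of 0.21 (SE 0.70, with an adjusted p of 0.892 by edgeR), and it went from 1.26 without WT replicate 1 to -0.20 without WT replicate 3. A difference in Muc2 between genotypes was not detectable beside this spread.

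The 2 measures of Muc2, counts and TPM, did not keep the same ratio in every library. Relative to the median gene of each library, TPM per count of Muc2 varied between libraries with a coefficient of variation of 8.32%, against a median of 0.310% over the 6204 genes with more than 500 counts in every library, and larger than in 98.2% of them. It was 1.11 in WT replicate 1 and 0.908 in WT replicate 2, relative to the WT mean. Muc2 lies at chr7:141690340-141754693 on the plus strand, and GENCODE M21 splits it into 8 transcripts, the longest of 2926 bases. In the same ratio Fcgbp varied by 4.55%, more than 93.6% of these genes, and Tff3, annotated with 1 transcript, by 1.33%. Whether the authors' annotation splits Muc2 in the same way is not given in the sources used here, and the part of transcript assignment in this variation was not tested.

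Fcgbp encodes a large mucus protein that binds to MUC2. Its level was 72.1 and 112.6 TPM in NDD and 96.1, 102.2 and 70.9 TPM in WT. NDD replicate 1 lay near the lower edge of the WT range and NDD replicate 2 above it. On the log2 scale the fold change of Fcgbp was 0.15 (SE 0.28, with an adjusted p of 0.812 by edgeR). It was 0.023 in a linear model fit (limma) on log2(TPM + 1), -0.29 without NDD replicate 2 and -0.067 with the replicate number as a block. Of its 31-base sequences, 12.2% also occur in other genes, nearly all in 9530053A07Rik, a neighbour by sequence that was at 0.25 TPM or less in every library.

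Clca1 encodes a secreted metalloprotease of mucus that cleaves MUC2. It was at 221 and 267 TPM in NDD and 160, 149 and 81.9 TPM in WT. Every NDD library was above every WT library. The log2 fold change was 0.93 (SE 0.31), and the edgeR adjusted p was 0.429. The row is the goblet gene formerly called Clca3 or gob-5: it lies at chr3:145003817-145032776 on the minus strand, and Clca3a1, which older lists name Clca1, has its own row at 2.55 TPM or less.

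Zg16 encodes a lectin of the inner mucus that binds Gram-positive bacteria. It was at 478 and 175 TPM in NDD and 245, 189.6 and 126 TPM in WT. NDD replicate 1 was the highest library and NDD replicate 2 lay within the WT range. The log2 fold change of 0.81 (SE 0.43, with an adjusted p of 0.481 by edgeR) rested on NDD replicate 1, without which it was -0.011.

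Among the smaller secreted proteins, Tff3 was the most abundant member in both genotypes. It encodes trefoil factor 3, a peptide that promotes repair of the epithelial surface. Its values of 898 and 812 TPM in NDD lay inside the WT values of 678, 924 and 792 TPM, and its log2 fold change was 0.14 (SE 0.17, with an adjusted p of 0.703 by edgeR).

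Spink4 encodes a Kazal-type protease inhibitor of goblet cell granules. It was at 263 and 342 TPM in NDD and 234, 265 and 219 TPM in WT. NDD replicate 2 was above every WT library, while NDD replicate 1 was just under the highest WT library. For Spink4 the fitted log2 fold change was 0.40 (SE 0.20, with an adjusted p of 0.477 by edgeR).

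Ang4 encodes angiogenin 4, an antimicrobial ribonuclease. It was at 75.4 and 47.3 TPM in NDD and 86.1, 65.0 and 73.6 TPM in WT, and was the only member with a lower fitted value in NDD. Its log2 fold change was -0.26 (SE 0.22, with an adjusted p of 0.589 by edgeR), and without NDD replicate 2 it was 0.0030. Of its 31-base sequences, 13.8% occur in other genes, most of them in Ang5, which had 0 counts in all libraries.

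The machinery of secretion was represented by Agr2 and Best2. Agr2 encodes a protein disulfide isomerase of the endoplasmic reticulum that is needed for making MUC2. It was at 547 and 684 TPM in NDD and 471, 456 and 382 TPM in WT. The NDD libraries were both above the WT range. Agr2 had a log2 fold change of 0.53 (SE 0.18, with an adjusted p of 0.435 by edgeR).

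Best2 encodes bestrophin 2, an anion channel that carries bicarbonate in colonic goblet cells. It had 121 and 190 counts in NDD and 20, 30 and 15 counts in WT, which corresponds to 4.89 and 7.65 TPM against 0.95, 1.18 and 0.60 TPM. Every NDD library was above every WT library by a wide margin. The log2 fold change was 2.82 (SE 0.42), which only 0.341% of all tested genes reached or exceeded. Its edgeR adjusted p was 0.119, so it was not called. DESeq2, an alternative count test, gave an adjusted p of 1.12e-06, and edgeR without a filter on low counts gave 0.0403. In 11 of 14 alternative settings Best2 was not called. Its adjusted p was 0.131 by limma-voom, 0.0712 to 0.183 by limma on TPM and 0.115 by edgeR with the replicate block. Without any 1 WT library the edgeR adjusted p was 0.353 to 0.371.

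The members also differed in which library was high. WT replicate 3 was the lowest of all 5 libraries in 8 of the 10 members by CPM. NDD replicate 2 was the highest in 5 members and NDD replicate 1 in 2 (Retnlb and Zg16). NDD replicate 1 exceeded NDD replicate 2 in 4 members, Retnlb, Tff3, Zg16 and Ang4, and was below it in 6. Neither NDD library was therefore the higher one in every member. Tff3 was nearly equal in them, at 138 and 136 CPM, and this order was not tested.

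**Figure D3:**
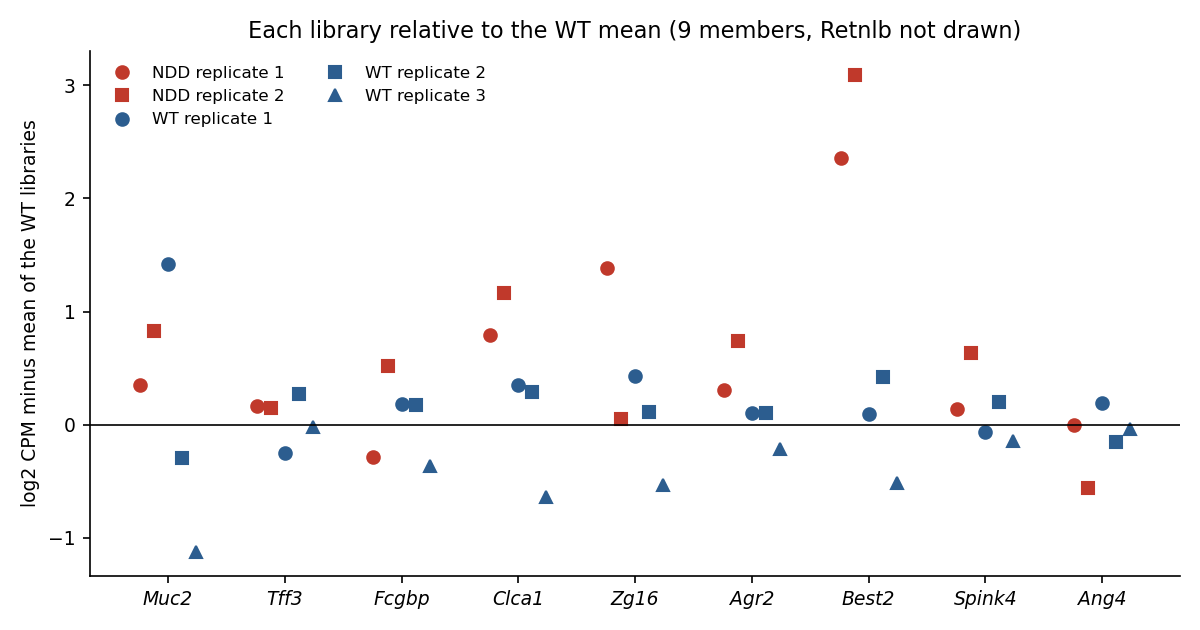
Log2 CPM of 9 members in each library, minus the mean of the 3 WT libraries (Retnlb, which is far off this scale, is not drawn). Best2 is above 2 in both NDD libraries. WT replicate 3 (triangles) is the lowest point for 7 of the 9 members drawn, and Muc2 has the widest WT spread.

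The summed level of the 10 members was higher in both NDD libraries in TPM but not in CPM. It was 2672 and 2569 TPM in NDD and 2119, 2189 and 1769 TPM in WT, with no overlap. The means were 2621 ± 73.5 TPM (SD, n = 2) and 2025 ± 225 TPM (SD, n = 3), a ratio of 1.29, or 0.262% and 0.203% of all transcripts. Without Tff3, the most abundant member, the ratio was 1.44. In CPM, which does not correct for length, the groups overlapped: the sums were 1344 and 1714 CPM in NDD and 1426, 1155 and 782 CPM in WT. No test was made of these sums. In bulk RNA, more goblet cells and more of these transcripts per goblet cell cannot be told apart.

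Differences in other epithelial markers ran alongside. These lists too were written with earlier results of these data known, so the shares given beside all genes are a description and no test. Of 12 colonocyte markers all 12 had a positive log2 fold change, with a median of 1.65, where 49.5% of all genes had a positive value. Higher in NDD without overlap were 10 of the 12, beside 15.8% of all genes, and 8 had an unadjusted p under 0.05 with a higher value in NDD, beside 6.49%. Phgr1 passed the test, at 1408 ± 66.5 TPM in NDD (SD, n = 2) and 582 ± 12.9 TPM in WT (SD, n = 3; edgeR adjusted p = 0.0373). The list summed to 6498 and 7186 CPM in NDD and to 4141 to 5446 CPM in WT. In several of these genes WT replicate 3 was far below the other WT libraries. In WT, Car4 was at 13.4, 9.99 and 1.09 TPM, Aqp8 at 58.0, 47.1 and 8.09 TPM and Krt20 at 32.5, 31.9 and 4.64 TPM. The abundant Ceacam1 did not share this, at 1175, 1033 and 1158 TPM. Of 10 stem and proliferation markers, 8 had a negative log2 fold change, with a median of -0.55, and none passed. Without overlap between genotypes were 4 of the 10, all of them lower in NDD. Of all tested genes 32% had no overlap in one direction or the other, and 15.8% were higher in NDD without overlap. By edgeR 3 of the 10 had an unadjusted p under 0.05, all lower in NDD, beside 11.2% of all genes in either direction. Among the 4 were the stem cell genes Lgr5 and Ascl2, which were picked out with their values in view. Levels of Lgr5 were 0.86 and 1.23 TPM in NDD and 3.37, 2.57 and 3.17 TPM in WT (log2 fold change -2.18, adjusted p = 0.119 by edgeR), and Ascl2 was at 8.38 and 7.61 TPM in NDD and 18.4, 20.0 and 33.6 TPM in WT (log2 fold change -1.56, adjusted p = 0.207 by edgeR). Slc12a2 and Smoc2, the 2 genes of the list with a positive value, had log2 fold changes of 0.30 and 0.11 and overlapped between genotypes. The summed level of the list was 2310 CPM in NDD replicate 1, within the WT values of 1922 to 2357 CPM, and 1221 CPM in NDD replicate 2. The enteroendocrine list, another secretory lineage, had 4 of 9 tested genes higher and 5 lower, with a median of -0.07 and sums of 71.1 and 81.6 CPM in NDD beside 69.7 to 116 CPM in WT. The tuft list, with Gnat3 at 0, reached at most 7.67 CPM. Of 10 Paneth markers Defa17, Defa22 and Defa30 were at 0, and the list summed to 8.27 and 9.21 CPM in NDD and to 5.37 to 22.6 CPM in WT. The part of these other cell types in the values of the goblet products was not tested.

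Transcription factors that act for or against the goblet fate were compared next. Of 14 listed, which include Hes1, the Notch target that opposes the secretory fate, 13 could be tested and 0 passed an edgeR adjusted p under 0.05, with 4 at an unadjusted p under 0.05, 3 higher and 1 lower, beside 11.2% of all genes. DESeq2 called none of them either. The median log2 fold change was 0.41, with 10 of 13 positive, Hes1 among them at 0.44. Atoh1, the factor that commits cells to the secretory lineage, was at 10.1 and 24.0 TPM in NDD and 11.2, 13.8 and 6.17 TPM in WT. Spdef, which drives goblet maturation, was at 17.8 ± 3.51 TPM (SD, n = 2) and 16.6 ± 2.79 TPM (SD, n = 3). These 2 factors were named after their values were seen. The values of both overlapped between genotypes (edgeR adjusted p = 0.515 and 0.797).

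Creb3l1, a membrane-bound transcription factor of secretory cells that is also counted in the list of glycosylation and folding genes, was at 261 ± 9.93 TPM in NDD and 147 ± 39.9 TPM in WT, with no overlap (log2 fold change 0.85 with SE 0.25, adjusted p = 0.390 by edgeR). Klf4, which goblet cells need for terminal differentiation, was at 148 and 357 TPM in NDD and 83.3 to 166 TPM in WT. NDD replicate 1 lay within the WT range there. Foxa1 had a lower fitted value in NDD, at 57.4 ± 11.8 TPM against 84.6 ± 4.12 TPM (log2 fold change -0.54 with SE 0.15, adjusted p = 0.351 by edgeR). Elf3 and Cdx2, broad epithelial factors, overlapped between genotypes, with log2 fold changes of 0.06 and 0.21.

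Genes that glycosylate or fold mucins were examined as the next step of the pathway. Of 22 listed, 20 could be tested and 0 passed in edgeR, with 4 at an unadjusted p under 0.05, all higher in NDD, beside 6.49% of all genes. DESeq2 called 2 of them, Galnt4 and Slc26a2, beside 2.54% of all genes. The median log2 fold change was 0.25, and 7 of 20 were higher in NDD without overlap, beside 15.8% of all genes. Slc26a2, a sulfate carrier, was at 151 and 219 TPM in NDD and 103, 76.5 and 55.1 TPM in WT (log2 fold change 1.27 with SE 0.31, adjusted p = 0.296 by edgeR). Galnt4, which starts O-linked glycan chains, was at 74.9 ± 12.3 TPM in NDD and 43.3 ± 4.45 TPM in WT (log2 fold change 0.82 with SE 0.18, adjusted p = 0.270 by edgeR). Fut2, a fucosyltransferase, was at 45.2 TPM in NDD replicate 1, close to the WT values of 32.4 to 43.7 TPM, and at 122 TPM in NDD replicate 2.

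**Figure D4:**
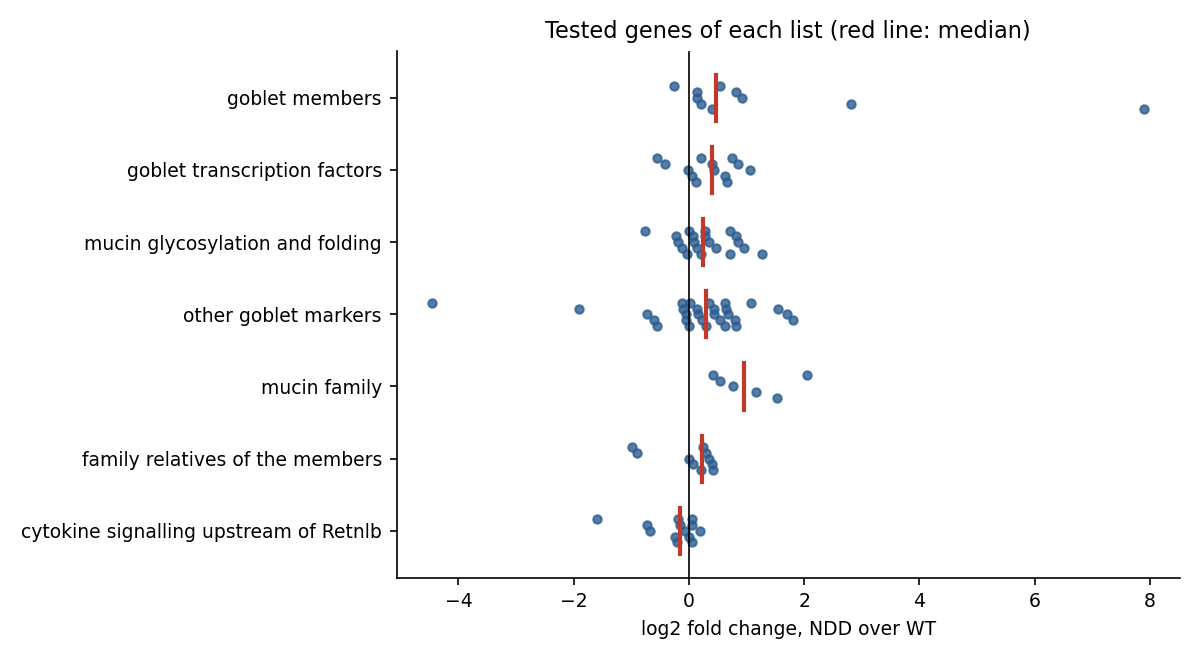
Fitted log2 fold change, NDD over WT, of every tested gene in the 10 members and in 6 lists of related genes. Red lines are medians: 0.47 for the members, 0.41 for transcription factors, 0.25 for glycosylation and folding, 0.31 for other goblet markers, 0.96 for mucins, 0.23 for relatives and -0.15 for cytokine signalling. Retnlb, at 7.90, stands far from all other points.

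Further goblet and crypt-surface markers gave a mixed picture. Of 30 listed, 29 were tested and 0 passed in edgeR, with 9 at an unadjusted p under 0.05, 6 higher and 3 lower, beside 11.2% of all genes. DESeq2 called 7 of them, beside 2.54% of all genes. The log2 fold change was positive in 20 and negative in 9, where 49.5% of all genes had a positive value. Without overlap 10 were higher and 3 lower in NDD, beside 15.8% of all genes higher and 32% in either direction. Lypd8, a secreted protein that keeps bacteria off the epithelium, was the most abundant, at 6560 ± 479 TPM in NDD and 3256 ± 1154 TPM in WT. Its groups did not overlap (log2 fold change 1.08 with SE 0.33, adjusted p = 0.402 by edgeR). Guca2a, the precursor of the hormone guanylin, was at 710.5 and 653.5 TPM in NDD and 339, 174 and 87.1 TPM in WT, with no overlap. Wfdc2 and Pigr, the latter the carrier of immunoglobulin A, overlapped between genotypes, with log2 fold changes of 0.13 and 0.63. In the opposite direction, Fxyd3 was at 46.3 and 24.5 TPM in NDD and 105, 117 and 181 TPM in WT (log2 fold change -1.90 with SE 0.35, adjusted p = 0.193 by edgeR). Nxpe4 was at 0.34 and 0.26 TPM in NDD and at 1.97, 9.41 and 8.03 TPM in WT (log2 fold change -4.45 with SE 0.78, adjusted p = 0.174 by edgeR). Both Fxyd3 and Nxpe4 had no overlap between genotypes.

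Of the other mucins, 12 had a row, 6 could be tested and 0 passed in edgeR, with 2 at an unadjusted p under 0.05, both higher, beside 6.49% of all genes. DESeq2 called Muc3, beside 2.54% of all genes. The gel-forming mucins of stomach and airway, Muc5ac and Muc5b, had 0 counts in all libraries. Muc3, a membrane mucin of absorptive cells, was at 691 and 831 TPM in NDD and 379, 229.5 and 110.5 TPM in WT, with no overlap (log2 fold change 1.53 with SE 0.44, adjusted p = 0.390 by edgeR). Muc13, the most abundant membrane mucin, was at 1029 ± 280 TPM in NDD and 791 ± 134 TPM in WT. Muc1, Muc4 and Muc20 were each lower in NDD replicate 1 than in NDD replicate 2, with 4.41 and 67.8 TPM for Muc1, 3.36 and 24.1 TPM for Muc4 and 1.10 and 5.92 TPM for Muc20.

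Among 26 relatives of the members with a row, 10 could be tested and 0 passed in edgeR, with 1 at an unadjusted p under 0.05, beside 11.2% of all genes. DESeq2 called none. That gene was Clca3b, a relative of Clca1, at 135 and 71.8 TPM in NDD and 269, 203 and 146 TPM in WT. It was lower in NDD without overlap (log2 fold change -0.99 with SE 0.34, adjusted p = 0.437 by edgeR), whereas Clca1 had a positive value. Ang and Rnase4, which share a locus, had log2 fold changes of 0.35 and 0.42, and Txndc12, a relative of Agr2, of 0.29.

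Receptors and signalling genes that act upstream of Retnlb in the gut were listed as well. Of 17, 13 could be tested and 0 passed in edgeR, with 2 at an unadjusted p under 0.05, both lower in NDD, beside 11.2% of all genes in either direction. DESeq2 called Il33, beside 2.54% of all genes. The median log2 fold change was -0.15. Il4ra, the receptor chain shared by IL-4 and IL-13, was at 18.2 and 14.4 TPM in NDD and 21.5, 21.7 and 37.8 TPM in WT (edgeR adjusted p = 0.437). Stat6, which carries the signal to the nucleus, was at 57.7 ± 8.46 TPM in NDD and 69.7 ± 2.52 TPM in WT. Il33, an epithelial alarm cytokine, was at 9.08 and 6.45 TPM in NDD and 12.7, 18.8 and 39.8 TPM in WT (log2 fold change -1.59 with SE 0.49, adjusted p = 0.412 by edgeR). These 3 had no overlap between genotypes and lower values in NDD. Of the 13 tested genes 4 were lower and 1 higher without overlap, where 32% of all genes had no overlap in one direction or the other. Il10rb, a receptor chain for IL-10 and IL-22, had a value of 0.19, and Rela and Nfkb1, subunits of NF-kappa-B, had values of -0.20 and -0.18.

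Genes with the most similar pattern over the 5 libraries were sought by the root mean square distance between log2 CPM profiles, each centred on its own mean. For Retnlb the nearest of 10313 candidates were Eno1b, Eif3j2 and Grb10, at distances of 1.41, 1.70 and 1.76. Candidates had to average a log2 CPM of 2 or more, which Retnlb itself does not reach. Genes with a mean level as low as that of Retnlb were therefore not searched, and these distances cannot show whether such a gene matches it. For Muc2 the nearest were Dmbt1, Ano7 and A1cf, at distances of 0.255, 0.312 and 0.328. Dmbt1, a secreted mucosal glycoprotein, was at 1767 and 2765 CPM in NDD and 2513, 1110 and 666 CPM in WT, and thus had the same order of WT libraries as Muc2.

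Promoter windows, from 250 bases before to 50 after the RefSeq gene start (GRCm38.p6), were available for 4 of the 10 members: Muc2, Fcgbp, Agr2 and Ang4. They were searched on both strands for TGGGAA, the core bound by the Notch partner RBPJ, for TTTAT, a core bound by CDX factors, and for CAGCTG, an E-box of the kind that Atoh1 binds. These motifs do not overlap each other in the windows printed. The windows of Muc2, the member with the widest WT spread, and Agr2, the abundant member whose groups did not overlap, are shown with matches in capitals.
Muc2, chr7:141690090-141690389, plus strand: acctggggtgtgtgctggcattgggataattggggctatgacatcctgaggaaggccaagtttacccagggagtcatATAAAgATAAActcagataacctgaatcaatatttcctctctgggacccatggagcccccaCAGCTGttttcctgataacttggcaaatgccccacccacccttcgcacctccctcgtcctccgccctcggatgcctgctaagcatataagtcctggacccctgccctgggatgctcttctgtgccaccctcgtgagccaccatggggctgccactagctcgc
Agr2, chr12:35992675-35992974, plus strand: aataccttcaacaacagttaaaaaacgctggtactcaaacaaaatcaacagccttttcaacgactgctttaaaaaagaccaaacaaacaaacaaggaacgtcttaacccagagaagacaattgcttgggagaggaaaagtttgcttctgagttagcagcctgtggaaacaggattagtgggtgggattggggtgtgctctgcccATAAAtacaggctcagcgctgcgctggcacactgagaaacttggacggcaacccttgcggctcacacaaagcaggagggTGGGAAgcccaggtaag
In Muc2 the CDX core occurred on the minus strand 173 and 167 bases upstream of the start, and the E-box 112 bases upstream. In Agr2 the CDX core occurred 46 bases upstream and the RBPJ core 33 bases downstream. Fcgbp had an E-box 208 bases upstream, and Ang4 had no match to the 3 motifs. Over all 32851 promoter windows of this length, 25.6% held the RBPJ core, 40.0% the CDX core and 16.3% the E-box, so each of these matches is common.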

How the data were processed

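Both deposited tables list 32793 genes for all 5 libraries. One gives estimated counts, which the authors left unnormalized and as whole numbers. The other gives TPM, scaled by the authors to a sum of 1000000 per library. Bowtie2, RSEM and the build mm10 are named in the submitters' processing notes, with no versions or roles. The annotation is not given in the sources used here. The RNA libraries were stranded, per the labels' protocols. All 5 value columns of each table matched a sample title.

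The plan was kept for the estimated counts: edgeR 4.0.16 in R 4.3.3 (quasi-likelihood test, robust, TMM factors, filterByExpr, no covariate, all 5 libraries), with p adjusted by Benjamini and Hochberg over 13501 genes and called under 0.05. The prior count for fold changes was 0.125, and each standard error is the fold change on the log2 scale over the root of its F statistic. Levels between genes use TPM. Permutation tests used scipy 1.17.1. Alternatives included DESeq2 1.42.0, limma 3.58.1 (voom, and log2(TPM + 1) or log2(TPM + 0.1)), other factors and filters, the replicate number as a block and leaving out each library. Marker list sums use unscaled totals.

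The members and lists were chosen with earlier results of these data known. Besides the 10 members, each of the 6 lists of related genes gave its 4 genes with the highest mean TPM, its 2 with the smallest p and any with an adjusted p under 0.05. The cell type lists are described by counts and sums, and the genes named from them fall outside this rule. The 3 most similar genes were sought where log2 CPM averaged 2 or more, leaving out symbols of predicted genes. Gene positions and 31-base sequences came from GENCODE M21 (GRCm38), and promoters from RefSeq. The code was tested on simulated counts for NDD against WT with 200 genes changed by 2 on the log2 scale. Over 13311 genes, edgeR recovered 81.5% of them, with 22 false among 185 calls. Over 13501 genes, DESeq2 recovered 87%, with 41 false among 215 calls. The simulated counts were drawn from the dispersions fitted to these libraries, so these rates belong to that setting.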

Additional observations from a re-analysis of the deposited data

How the results depend on the processing

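The number of members called, 1, was also 1 under RLE factors, limma-voom, the 3 limma fits on TPM and the replicate block. It was 2 (Retnlb and Best2) when low genes were kept, beside 58 of 19182 genes, and 2 in DESeq2, beside 2.54% of all genes. It was 0 under a strict filter of 10 counts per library, which by its construction leaves Retnlb out (3 members at an unadjusted p under 0.05). Without any 1 WT library it was 0, with 3 to 5 members at an unadjusted p under 0.05. Without NDD replicate 1, which leaves a lone NDD library, the log2 fold changes of Retnlb, Best2 and Agr2 were 7.61, 3.14 and 0.73. The fitted log2 fold change of Retnlb was 5.13 to 8.07 in 8 other settings, all past the threshold, and 7.33 to 8.73 when 1 library was left out. Over all genes 12 were called, against 58 with low genes kept, 4 with the strict filter, 365 with DESeq2, 24 with limma-voom, 28 and 32 with limma on log2(TPM + 1) and log2(TPM + 0.1), 33 with the replicate block, and 0 (without WT replicate 1, with 1211 at an unadjusted p under 0.05) to 1207 (without NDD replicate 1) when 1 library was left out. In the related lists 0 of 90 tested genes were called, 21 having an unadjusted p under 0.05. DESeq2 called 11 of 102, 7 higher and 4 lower, beside 2.54% of all genes, and leaving out any 1 WT library gave 0. The cause of these gaps was not tested. The median over the members stayed between 0.24 and 0.82 in all 14 alternatives. The ratio of the summed levels was 1.44 without Tff3 and 1.36 in CPM. Signs turned in 8 of 126 values of the other 9 members: Muc2 (-0.20 to 1.26 with 1 library left out, below 0 without NDD replicate 2, WT replicate 2 or WT replicate 3), Fcgbp (-0.067 with the replicate block, and -0.29 to 0.49 with 1 library left out, below 0 without NDD replicate 2 or WT replicate 3), Zg16 (-0.011 without NDD replicate 1 to 1.35 without NDD replicate 2) and Ang4 (-0.58 without NDD replicate 1 to 0.0030 without NDD replicate 2). None of these was called in either direction.

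Same-numbered libraries deviated from their group means with correlations of 0.013 and 0.30, and the labels do not say that a number marks a shared litter or day, so they were not paired. With the replicate block the log2 fold change of Retnlb was 7.30 (edgeR adjusted p = 0.00362) and the related lists still had 0 calls. With 2 libraries against 3, the two-sided permutation test used here cannot go below 0.2, and at 19192389 to 23064000 counts per library a gene under 0.130 to 0.156 CPM cannot be told from absent.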

Other observations

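The 4 tested genes of the Paneth list, all of them secreted products, did not share a direction, and they were named after their values were seen. Itln1, which encodes a lectin that binds bacterial sugars, was at 7.97 ± 1.12 TPM in NDD (SD, n = 2) and 1.57 ± 0.265 TPM in WT (SD, n = 3), with no overlap (log2 fold change 2.36, SE 0.34, edgeR adjusted p = 0.104). Pla2g2a, which encodes a phospholipase that attacks bacterial membranes, was at 7.90 ± 1.25 TPM in NDD and 1.51 ± 0.780 TPM in WT, also with no overlap (log2 fold change 2.39, SE 0.51, edgeR adjusted p = 0.256). The Paneth genes Mmp7, a protease that activates defensins, and Lyz1, a lysozyme, had the opposite sign. Mmp7 was at 1.08 ± 0.700 TPM in NDD and 11.8 ± 11.3 TPM in WT, with no overlap (edgeR adjusted p = 0.394), and Lyz1 was at 0.845 ± 0.0495 TPM and 5.23 ± 5.93 TPM (edgeR adjusted p = 0.460). None of these 4 genes passed the test. For them too, and for Pla2g2a among them, a difference in strain background and the Notch genotype cannot be told apart.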
